A study of Mus musculus with 6 samples.

Results

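Cell cycle and DNA replication genes were compared by RNA sequencing in mouse embryonic fibroblasts that lack beta-actin (KO) and in their wild-type counterparts (WT). The 60 genes were taken by symbol from a list of cyclins, cyclin-dependent kinases, E2F factors, replication proteins and mitotic proteins, and 60 of 60 were found among the 46603 gene identifiers that each library lists. There were 3 KO and 3 WT libraries. Both genotypes were of the BALB/c strain, with an embryo age of 10.5 days, and both had spent 6 days in adipocyte differentiation medium, which adds insulin, dexamethasone, IBMX and ascorbic acid to a serum-containing growth medium. Every library was therefore from treated cells, and no library from before the medium was compared. The labels name neither the number of embryos behind each line nor separate cultures, so the p-values measure the spread between libraries, which may be technical, and each genotype may be 1 line.

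The cell cycle is driven by cyclins that switch on cyclin-dependent kinases in turn. D-type cyclins with Cdk4 or Cdk6 phosphorylate the retinoblastoma protein in G1, which frees E2F factors to transcribe genes for S phase. The MCM helicase is loaded on origins by Orc1, Cdc6 and Cdt1 and fired with the GINS complex. Cyclins A and B with Cdk1 then bring the cell into mitosis, and their genes are transcribed late in the cycle under B-Myb and Foxm1.

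Library totals ran from 26955708 to 38619711 counts. Actb, the targeted gene, had 10.4, 59 and 50.3 CPM in KO and 1901, 1904 and 1820 CPM in WT in replicates 1, 2 and 3 (log2 fold change -5.55, SE 0.80, adjusted p = 0.00088), where CPM is the count per 1000000 counts of the TMM-adjusted library total. The KO libraries all lay far below the WT libraries. Of 8 fibroblast markers 6 rose and 0 fell, with a summed level of 6831 to 9366 CPM in KO and 2966 to 3708 CPM in WT. Col1a1, Vim and Fn1 were abundant in every library, but Col1a2 was at 4.70, 7.98 and 5.33 CPM in KO and 0.409, 0.189 and 0.304 CPM in WT, and Thy1 had 20, 13 and 17 counts in KO and 0, 1 and 0 in WT. Adipoq and Lep, made by mature adipocytes, had at most 1 count in a library, while Cidec had 0, 3 and 45 counts in KO and 0 in each WT library. Of 6 macrophage markers Tyrobp was at 0 in every library and Ptprc had 1 count in all, Fcer1g fell (4 counts in KO and 55 in WT, adjusted p = 0.0064), and Cd68 had 14.6, 2.14 and 2.37 CPM in KO and 8.77, 18.9 and 6.69 CPM in WT. Epithelial markers went in both directions, since Krt18 and Krt19 rose and carry the sum of 30.3 to 50.6 CPM in KO and 5.03 to 10.2 CPM in WT, whereas Epcam fell (0 counts in KO and 127 in WT, adjusted p = 0.000994) and Cdh1 and Krt8 had 6 and 8 counts in KO and 29 and 19 in WT. The part of these marker differences in the cycle gene levels was not tested. KO replicate 1 stood apart from the other KO libraries in the cycle genes and across genes at large. Pairs of libraries were compared by chi-square per degree of freedom over tested genes with enough counts, larger where counts differ more. It was 177 and 175 for KO replicate 1 against KO replicates 2 and 3. KO replicates 2 and 3 gave 27.1, and WT pairs 17.4 to 32.4. KO replicate 1 also had the lowest TMM factor (0.881) and the fewest genes with a count (20870). For many of the genes the value without it is given with their role class.

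Among the S-phase genes 22 of 29 had a negative log2 fold change, KO over WT, and among the mitotic genes 23 of 25 a positive one, but most genes of either block did not pass the test. In the 29 S-phase genes (G1/S switch, origin licensing and DNA synthesis) 6 fell, 0 rose and 23 did not pass, so 20.7% were called, against 28.3% of all tested genes. In the 25 mitotic genes (G2/M drivers, kinetochore and checkpoint, spindle and cytokinesis) 9 rose, 1 fell and 15 did not pass, so 40.0% were called. The 6 genes of G1 had 1 gene higher and 1 lower. Each gene was tested with edgeR's quasi-likelihood test over 15009 genes with Benjamini-Hochberg adjustment, and "rose" or "fell" means an adjusted p below 0.05. Of all tested genes 28.3% passed, 13.8% higher and 14.5% lower in KO, and 18 of the 60 cycle genes passed, or 30.0%, so the list as a whole changed about as often as genes at large. The KO and WT libraries did not overlap in 33 of the 60 genes, against 49.6% of all tested genes, with KO above WT in 18 (23.8% of all) and KO below WT in 15 (25.8% of all). The median log2 fold change, KO over WT, was -0.21 for the S-phase genes, 0.43 for the mitotic genes and 0.01 for all tested genes. An unadjusted p below 0.05 was reached by 28 of the 60 genes, against 40.9% of all tested genes. These were 8 lower and 1 higher S-phase genes, 15 higher and 1 lower mitotic genes, and 3 genes of G1. The S-phase and mitotic blocks were formed from the role classes after values had been seen. DESeq2 called 8 lower and 1 higher in S phase and 12 higher and 1 lower in mitosis, and limma-voom 6 lower and 1 higher, and 9 higher and 1 lower. Of the 60 genes DESeq2 called 25 and limma-voom 19, against 18 with edgeR. The shares of all tested genes that DESeq2 and limma-voom called are not given here. These counts alone therefore do not show how the list compares with genes at large under those tests.

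Without KO replicate 1 the median log2 fold change was -0.09 for the S-phase genes, with 23 of 29 negative, and 0.29 for the mitotic genes, with 22 of 25 positive. In that fit 17 of the 18 called genes kept their call, 8 further genes passed, and 33 of the 60 fold changes moved by over 1.5 times or changed sign. The count of all tested genes called also varied between the fits without 1 library. The share for this fit is not given here, so the 8 further calls are not read as particular to the cycle genes.

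The count of mitotic genes that rose depended on the libraries and on scaling. It was 2, 2 and 1 without WT replicates 1, 2 and 3, and 10, 8 and 8 without KO replicates 1, 2 and 3. The S-phase genes that fell numbered 4, 2 and 4 without WT replicates 1, 2 and 3, and 8, 4 and 3 without KO replicates 1, 2 and 3. The count of all tested genes that rose also dropped without 1 WT library, to 1225, 1003 and 1294, against 2074 with all libraries. The count of all tested genes that fell varied between the fits without 1 library as well. The changes in the S-phase and mitotic counts are therefore not read apart from those of genes at large. With library totals in place of TMM the median of all tested genes moved to -0.19, and the counts became 10 lower S-phase genes and 3 higher mitotic genes. All tested genes likewise had fewer higher and more lower calls with library totals. In bulk RNA a smaller share of cells in a phase and less RNA per cell in that phase cannot be told apart.

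**Figure D1:**
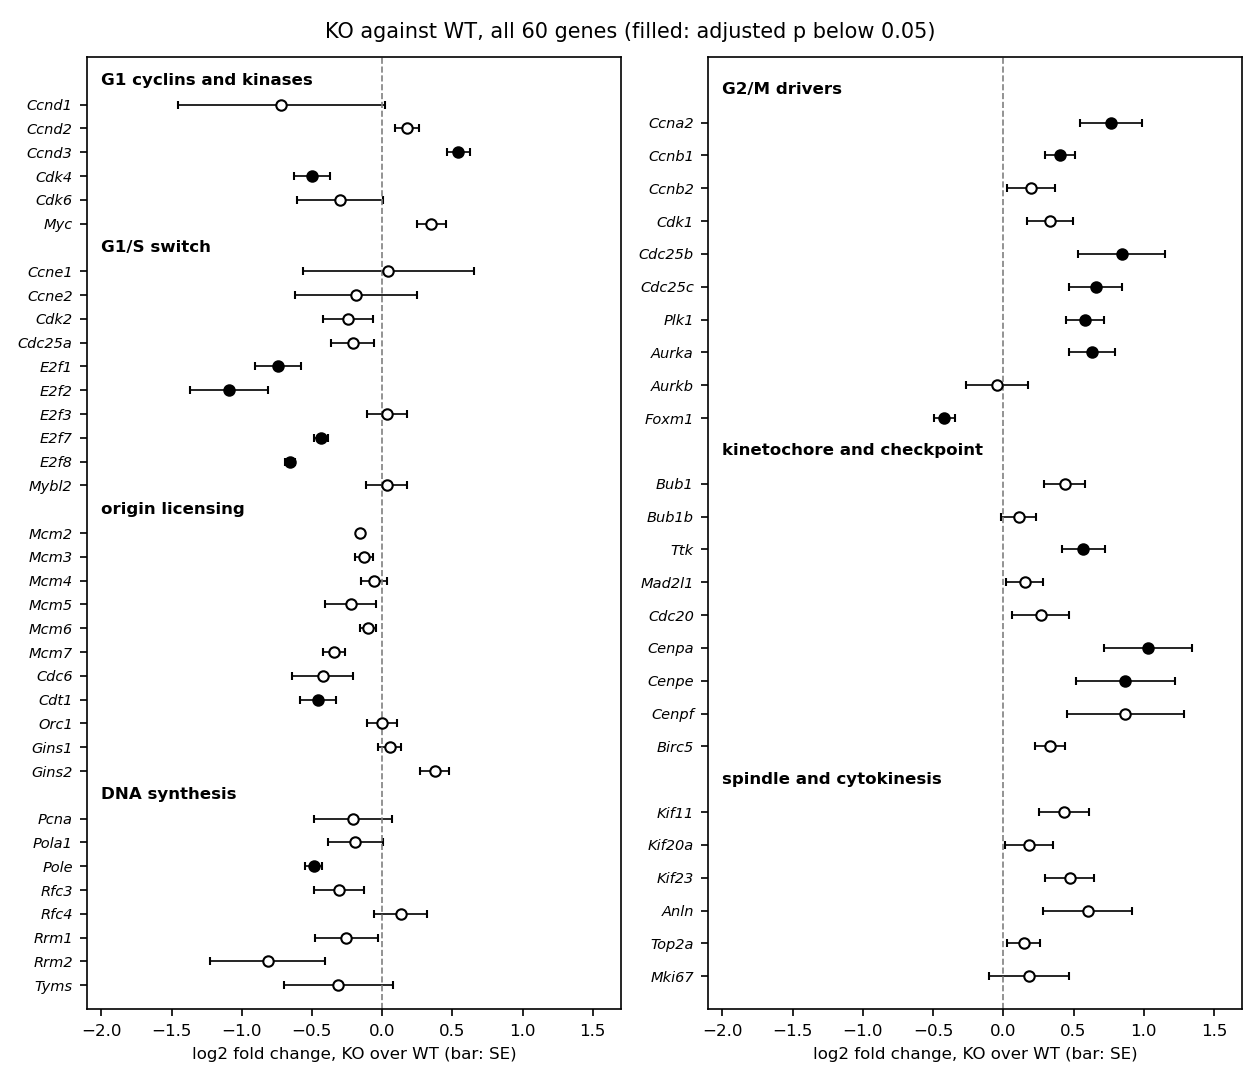
Log2 fold change (KO over WT, horizontal axis) of each of the 60 cycle genes with its standard error, grouped by role. Filled points have an adjusted p below 0.05, with 18 filled, of which 10 lie right of 0 and 8 left of it, and Foxm1 is the 1 mitotic gene filled left of 0.

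KO replicate 1 was the lowest of all 6 libraries in 20 of the 60 cycle genes and the highest in 25. Of the 29 S-phase genes it had the lowest level of all 6 libraries in 17 and the highest in 3, and of the 25 mitotic genes it had the highest in 22 and the lowest in 0. The shares of all tested genes with this library lowest or highest are not given here. These counts are therefore not read as particular to the cycle genes. The median S-phase gene lay -0.497, -0.07 and -0.115 from the WT mean (log2 CPM) in KO replicates 1, 2 and 3, against 0.0679, -0.0304 and -0.0263 in WT replicates 1, 2 and 3. The median mitotic gene lay 0.66, 0.272 and 0.313 from the WT mean in KO, and 0.0376, 0.0794 and -0.119 in WT. All 3 KO libraries thus lay below 0 for the S-phase genes and above the WT libraries for the mitotic genes, with replicate 1 the farthest out. The same library had the lowest Actb level of the KO libraries, 10.4 CPM against 59.0 and 50.3 CPM, and the highest summed level of adipocyte markers, 110 CPM (mostly Fabp4) against 8.75 and 17.5 CPM in KO and 4.84 to 9.62 CPM in WT. Whether these have a part in its cycle gene levels was not tested.

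**Figure D2:**
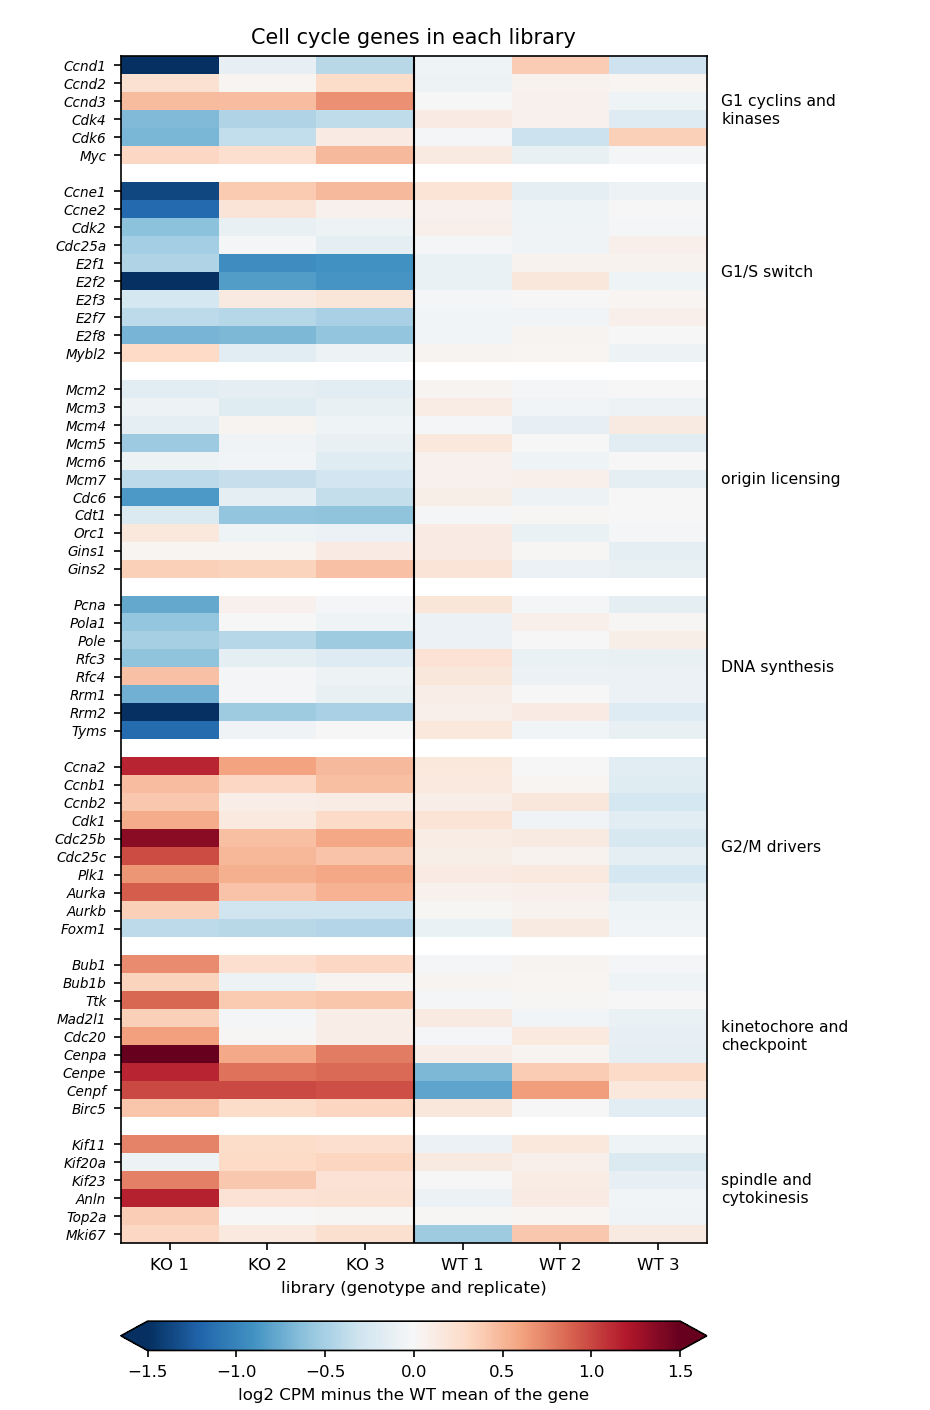
Level of each cycle gene (rows, grouped by role) in each library (columns, KO replicates 1 to 3 left of the line and WT replicates 1 to 3 right of it), as log2 CPM minus the WT mean of that gene, with colours cut at 1.5 in either direction. KO replicate 1 is the darkest column, with Ccnd1, Ccne1, Rrm2 and Tyms at the low end and Cenpa and Cdc25b at the high end, and WT replicate 1 is low in Cenpe, Cenpf and Mki67.

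Promoters of these genes were read for 3 motifs of cycle-dependent transcription, to set the genes that moved beside the letters before their starts. RefSeq promoter windows (GRCm38.p6) were found for 47 of the 60 genes, and Aurkb, Ccna2, Ccnd1, Ccnd2, Ccne2, Cdc25c, Foxm1, Gins1, Gins2, Kif20a, Mcm4, Myc and Pole had none. Where a gene had several windows, only the one with the start farthest upstream was searched. That was so for 4 of the genes, Ccnd3, E2f2, E2f3 and Mcm7, whose other starts were not read. The 250 bases before the start were searched on both strands for the CCAAT box (CCAAT), for the cell cycle homology region (CHR, TTTGAA or TTCGAA) and for an E2F element (TTTCCCGC, TTTCGCGC, TTTGGCGC or TTTGCCGC, where matches on opposite strands can overlap). An E2F element stood in 11 of 24 S-phase windows (45.8%), in 1 of 20 mitotic windows (5%) and in 1.92% of 27025 windows of all genes. A CCAAT box stood in 17 of 24 S-phase windows (70.8%), 17 of 20 mitotic windows (85%) and 34.5% of all windows, and a CHR in 5 (20.8%), 7 (35%) and 17.5%. Among the genes that changed, a CCAAT box stood in 7 of the 8 higher ones with a window and 3 of the 6 lower ones, against 24 of the 33 that did not pass (72.7%). A CHR in the letters searched stood in 0 of the 8 higher and 1 of the 6 lower ones, against 11 of the 33 (33.3%). An E2F element stood in 0 and 1, against 11 of the 33. Other spellings of these motifs and bases after the start were not searched, so a gene without a match may still hold such an element. These shares describe letters in these windows and carry no test. Some windows lie partly in annotated exons, so the letters read there may be transcribed. Of the 200 bases before the start, exons cover 200 in Mcm7, 114 in Orc1 and 72 in Cdk2, and 0 in E2f7. Of the 120 bases before it they cover 109 in Cenpa, 87 in Plk1 and 84 in Ccnb1, and 0 in Ttk. Exon cover was counted for only part of the windows.

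The stretches below show the motifs in place, in genes that changed and in genes that did not. Ttk and Cdc25b are mitotic genes that rose, with the CCAAT box or its reverse complement in capitals in the 120 bases before the start. E2f7 fell and Mcm5 and Mcm6 did not pass the test, with E2F elements in capitals in the 200 bases before the start. These 3 genes also hold 2 CCAAT boxes each, left in lower case, so the stretches do not set CCAAT boxes apart by call. The 5 genes were picked by hand among windows that no annotated exon meets, which also include those of Cdc25a, E2f3 and Pola1. All are written 5′ to 3′ along the gene, and positions are GRCm38.p6. Ttk lies at chr9:83834569-83834688, plus strand, and Cdc25b at chr2:131186828-131186947, plus strand. E2f7 lies at chr10:110745239-110745438, plus strand, Mcm5 at chr8:75109309-75109508, plus strand, and Mcm6 at chr1:128359706-128359905, minus strand.
Ttk: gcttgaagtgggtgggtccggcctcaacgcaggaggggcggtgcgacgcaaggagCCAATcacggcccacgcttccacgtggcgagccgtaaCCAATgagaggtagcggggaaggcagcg
Cdc25b: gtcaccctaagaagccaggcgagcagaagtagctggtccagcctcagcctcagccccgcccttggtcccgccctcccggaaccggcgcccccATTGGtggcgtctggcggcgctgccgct
E2f7: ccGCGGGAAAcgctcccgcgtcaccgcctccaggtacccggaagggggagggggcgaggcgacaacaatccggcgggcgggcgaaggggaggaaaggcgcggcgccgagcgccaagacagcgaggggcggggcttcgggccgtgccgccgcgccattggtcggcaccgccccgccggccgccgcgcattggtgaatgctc
Mcm5: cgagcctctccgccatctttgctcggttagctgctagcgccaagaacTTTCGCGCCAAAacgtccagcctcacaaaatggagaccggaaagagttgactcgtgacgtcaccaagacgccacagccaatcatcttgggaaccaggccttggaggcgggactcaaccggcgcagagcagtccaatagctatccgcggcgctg
Mcm6: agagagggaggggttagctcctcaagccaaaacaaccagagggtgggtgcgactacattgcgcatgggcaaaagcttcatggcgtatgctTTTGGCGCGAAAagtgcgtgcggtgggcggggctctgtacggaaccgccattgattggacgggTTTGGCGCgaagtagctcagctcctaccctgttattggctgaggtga
Ttk holds 2 CCAAT boxes that start 65 and 28 bases before the gene's start, and Cdc25b 1 on the opposite strand, 28 bases before it. E2f7 holds 1 E2F element, 198 bases before its start. Mcm5 holds 2 overlapping elements on opposite strands, and Mcm6 holds 3, of which 2 overlap.

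Among the G1 genes cyclin D3 rose and Cdk4 fell, while the other 4 did not pass. So 33.3% of this class were called, against 28.3% of all tested genes. Ccnd3 (ENSMUSG00000034165, chromosome 17, 47505051 to 47599691, GRCm38), a D-type cyclin that activates Cdk4 and Cdk6, had 130.3, 128 and 150 CPM in KO and 93.8, 97.6 and 89.1 CPM in WT (log2 fold change 0.54, SE 0.08, adjusted p = 0.00951). Every KO library lay above every WT library. Cdk4 (ENSMUSG00000006728, chromosome 10, 127063534 to 127067920), the catalytic partner of the D cyclins, had 452, 524 and 548 CPM in KO and 781, 747 and 625 CPM in WT (log2 fold change -0.50, SE 0.13, adjusted p = 0.0359). The highest KO library stood below the lowest WT library. Cdk4 was the most abundant gene of this class per length, at 156 ± 15.4 in KO and 221 ± 25.2 in WT (RPKM, mean ± SD, n = 3), where RPKM is CPM per kilobase of exon. Its exons overlap those of Tspan31 on the opposite strand over 19.7% of their length, and those of Ccnd3 overlap Bysl over 4.11%. The library kit does not mark strand, so reads from such stretches may belong to either gene. Ccnd3 lost its call with library totals (0.0585), and Cdk4 without KO replicate 2 (0.0717), KO replicate 3 (0.068), WT replicate 1 (0.122) or WT replicate 2 (0.136), each value an adjusted p. With the replicate number added to the design as a block, Cdk4 lost its call too (0.096).

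Ccnd1, the D cyclin that growth factors induce, had 9.24, 44.2 and 36.2 CPM in KO and 46, 63 and 38.8 CPM in WT (log2 fold change -0.72, SE 0.74, adjusted p = 0.314). KO replicate 1 was far below the other 5 libraries, whose values overlapped between the genotypes. With that library left out, Ccnd1 stood at -0.29 on the log2 scale (adjusted p = 0.267). Ccnd2, a further D cyclin, had 54.8, 47.6 and 56.5 CPM in KO and 44.4, 48.5 and 47.7 CPM in WT (log2 fold change 0.18, SE 0.09, adjusted p = 0.289). Per length, Ccnd3 made up 65.6%, 50.3% and 55.5% of the 3 D cyclins in KO, and 42.5%, 37.5% and 43.3% in WT. Ccnd1 made up 8.67%, 32.3% and 25.0% in KO, and 38.8%, 45.1% and 35.1% in WT. The D cyclin transcripts of KO cells thus held a larger share of Ccnd3 and a smaller share of Ccnd1 in each library, with no overlap between the genotypes. Ccnd1 exons overlap LTO1 on the opposite strand over 23.4%. Cdk6, the other D cyclin kinase, had log2 fold change -0.30 (adjusted p = 0.391), with overlapping libraries, and -0.13 without KO replicate 1. Myc, a transcription factor of growth genes, had 62.5, 59.7 and 70.5 CPM in KO and 55, 46.4 and 49.7 CPM in WT (log2 fold change 0.35, SE 0.10, adjusted p = 0.0653). Its KO libraries all lay above its WT libraries, though it missed the threshold, which it passed without KO replicate 1 (adjusted p = 0.0271).

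Of the 10 genes at the G1/S switch 4 fell and 6 did not pass, or 40% called against 28.3% of all tested genes. All 4 were E2F factors. E2f1 (ENSMUSG00000027490, chromosome 2, 154559407 to 154569892), an activating E2F that turns on S-phase genes, had 107, 76.8 and 78.1 CPM in KO and 136, 152 and 151 CPM in WT (log2 fold change -0.74, SE 0.16, adjusted p = 0.0102). It was the most abundant gene of its class per length, at 27.7 ± 5.43 in KO and 46.4 ± 2.86 in WT (RPKM, mean ± SD, n = 3). E2f2 (ENSMUSG00000018983, chromosome 4, 136172394 to 136196057), a second activator, had 3.87, 6.82 and 6.61 CPM in KO and 11.4, 13.8 and 11.7 CPM in WT (log2 fold change -1.09, SE 0.28, adjusted p = 0.0157). In both genes the KO libraries lay below all WT libraries, and among KO libraries replicate 1 was the highest for E2f1 and the lowest for E2f2. Without KO replicate 1 both kept their calls, at log2 fold changes of -0.916 for E2f1 and -0.875 for E2f2. E2f8 (ENSMUSG00000046179, chromosome 7, 48866429 to 48881596), an atypical E2F that represses S-phase genes late in the cycle, had 18.6, 18.8 and 19.9 CPM in KO and 29.4, 31 and 30.1 CPM in WT (log2 fold change -0.66, SE 0.04, adjusted p = 0.00604). E2f7, its close relative with the E2F element shown above, had 33.5, 32.6 and 31.5 CPM in KO and 42.7, 42.8 and 46.5 CPM in WT (log2 fold change -0.44, SE 0.05, adjusted p = 0.0219). These repressors were tight within each genotype, with KO replicate 1 close to the other KO libraries. Both of these activators and both atypical repressors were thus lower, whereas E2f3, another activator, had 25.5, 33.4 and 34.6 CPM in KO and 29.9, 30.4 and 31 CPM in WT (log2 fold change 0.03, SE 0.14, adjusted p = 0.886) and overlapped. E2f1 and E2f8 kept their calls in all 14 alternatives. E2f2 lost its call without WT replicate 2 (0.0716) and E2f7 without KO replicate 2 (0.0617), KO replicate 3 (0.0854), WT replicate 1 (0.0586), WT replicate 2 (0.0805) or WT replicate 3 (0.0767) and when genes with low counts were kept (0.0501). E2f7 also lost it with the replicate block (0.0822). Exons of E2f8 overlap Gm2788 on the opposite strand over 11.2%.

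The E cyclins, which start S phase with Cdk2, separated KO replicate 1 from the rest. Ccne1 had 9.95, 33.6 and 36 CPM in KO and 29.6, 23.4 and 24.4 CPM in WT (log2 fold change 0.04, SE 0.61, adjusted p = 0.95). KO replicate 1 was below all WT libraries, and KO replicates 2 and 3 were above them. Without KO replicate 1 Ccne1 passed the test, with log2 fold change 0.433 (adjusted p = 0.0226). Ccne2 had 24, 61.3 and 56.3 CPM in KO and 56.2, 51.6 and 53.6 CPM in WT (log2 fold change -0.19, SE 0.43, adjusted p = 0.683), again with KO replicate 1 the lowest, and 0.13 without it (adjusted p = 0.259). Cdk2, with log2 fold change -0.25, and Cdc25a, the phosphatase that activates it, with -0.21, did not pass (adjusted p = 0.274 and 0.317). Mybl2, which encodes B-Myb, a factor that opens the late transcription programme, had log2 fold change 0.03 (SE 0.15, adjusted p = 0.887), with libraries that overlapped. Leaving KO replicate 1 out gave log2 fold changes of -0.09 for Cdk2, -0.08 for Cdc25a, 0.16 for E2f3 and -0.12 for Mybl2, and 0 of these genes passed.

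Of 11 origin licensing genes 1 fell and 10 did not pass, or 9.09% called against 28.3% of all tested genes. The helicase subunits differed little. This class also holds Gins1 and Gins2, whose complex activates the helicase after it is loaded. Cdt1 (ENSMUSG00000006585, chromosome 8, 122568015 to 122573554), which loads the MCM helicase, had 136, 104 and 104 CPM in KO and 155, 160.2 and 158 CPM in WT (log2 fold change -0.46, SE 0.13, adjusted p = 0.038). All KO libraries lay below the WT libraries, and here KO replicates 2 and 3 were the lower ones. The 6 MCM subunits ran from -0.34 (Mcm7) to -0.06 (Mcm4) in log2 fold change, all negative and none called. Mcm7, the most abundant licensing gene per length at 73.6 ± 2.79 in KO and 93.3 ± 7.76 in WT (RPKM, mean ± SD, n = 3), had 314, 324 and 339 CPM in KO and 432, 434 and 373 CPM in WT (log2 fold change -0.34, SE 0.08, adjusted p = 0.0631). Its genotypes did not overlap. The same held for Mcm3 and for Mcm2, which had 339, 341 and 338 CPM in KO and 388, 370.2 and 376 CPM in WT (log2 fold change -0.16, SE 0.02, adjusted p = 0.292). Mcm5 had 221, 311 and 299 CPM in KO and 360, 324 and 286 CPM in WT, with overlapping libraries. Mcm6 had 314, 324 and 293 CPM in KO and 348, 319 and 332 CPM in WT, which overlapped too. Cdc6, which loads the helicase with Cdt1, had 35.2, 58.1 and 49.9 CPM in KO and 67.7, 60.7 and 63.6 CPM in WT (log2 fold change -0.42, SE 0.22, adjusted p = 0.125). KO libraries lay below WT libraries for Cdc6, with replicate 1 the lowest. With KO replicate 1 left out, Cdc6 was at -0.24, Mcm5 at -0.09 and Mcm4 at -0.02, still not called, and Mcm7 passed at -0.32 (adjusted p = 0.0396).

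Gins2, a subunit of the GINS complex that activates the helicase, went the other way without passing. It had 143, 139.9 and 151 CPM in KO and 127, 104 and 103 CPM in WT (log2 fold change 0.37, SE 0.10, adjusted p = 0.0532), each KO library above each WT library. Its exons overlap Gse1 on the opposite strand over 67.3% of their length. Whether reads from that stretch were counted for Gins2 or dropped, and which gene they come from, was not tested. Gins2 passed in 6 of the 14 alternatives. Gins1 and Orc1 had log2 fold changes of 0.05 and 0.00 (adjusted p = 0.793 and 0.997), with Orc1 at -0.08 without KO replicate 1. Cdt1 lost its call without KO replicate 2 (0.111), KO replicate 3 (0.129), WT replicate 1 (0.0937), WT replicate 2 (0.123) or WT replicate 3 (0.0992), and with the replicate block (0.0757).

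Of 8 DNA synthesis genes 1 fell and 7 did not pass, or 12.5% called against 28.3% of all tested genes. Pole (ENSMUSG00000007080, chromosome 5, 110286306 to 110337474), the catalytic subunit of the leading-strand polymerase, had 140.4, 147 and 137 CPM in KO and 186, 198 and 211 CPM in WT (log2 fold change -0.49, SE 0.06, adjusted p = 0.0121). The KO libraries were close to each other and all below WT. Rrm2, the cell cycle-regulated subunit of ribonucleotide reductase, which makes deoxynucleotides, had 44.2, 99.3 and 103 CPM in KO and 152, 157 and 126 CPM in WT (log2 fold change -0.81, SE 0.41, adjusted p = 0.0786). The genotypes did not overlap, and KO replicate 1 was far below the other KO libraries. Without KO replicate 1 the spread within KO was smaller and Rrm2 passed, with log2 fold change -0.515 (adjusted p = 0.00772). Tyms, thymidylate synthase, had 91.5, 197 and 205 CPM in KO and 227, 198 and 189 CPM in WT (log2 fold change -0.31, SE 0.39, adjusted p = 0.441). Pcna, the sliding clamp and the most abundant of the class per length at 202 ± 57 in KO and 233 ± 27.3 in WT (RPKM, mean ± SD, n = 3), had 328, 581 and 547 CPM in KO and 631, 547 and 502 CPM in WT (log2 fold change -0.21, SE 0.28, adjusted p = 0.522). For both of these KO replicates 2 and 3 lay within the WT range and KO replicate 1 lay below it. Without that library the log2 fold change was -0.02 for Tyms (adjusted p = 0.868) and 0.01 for Pcna (adjusted p = 0.953). Rrm1, the large reductase subunit (log2 fold change -0.26), Pola1, of the priming polymerase (-0.19), and Rfc3, a clamp loader subunit (-0.31), did not pass, and Rfc4, of the same clamp loader, was the single gene of the class with a positive value (0.13, adjusted p = 0.591). Leaving out KO replicate 1 put Rrm1 at -0.07, Pola1 at -0.03, Rfc3 at -0.18 and Rfc4 at -0.05. Pole lost its call without KO replicate 3 (0.0562) or WT replicate 2 (0.0595), and with the replicate block (0.0502).

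**Figure D3:**
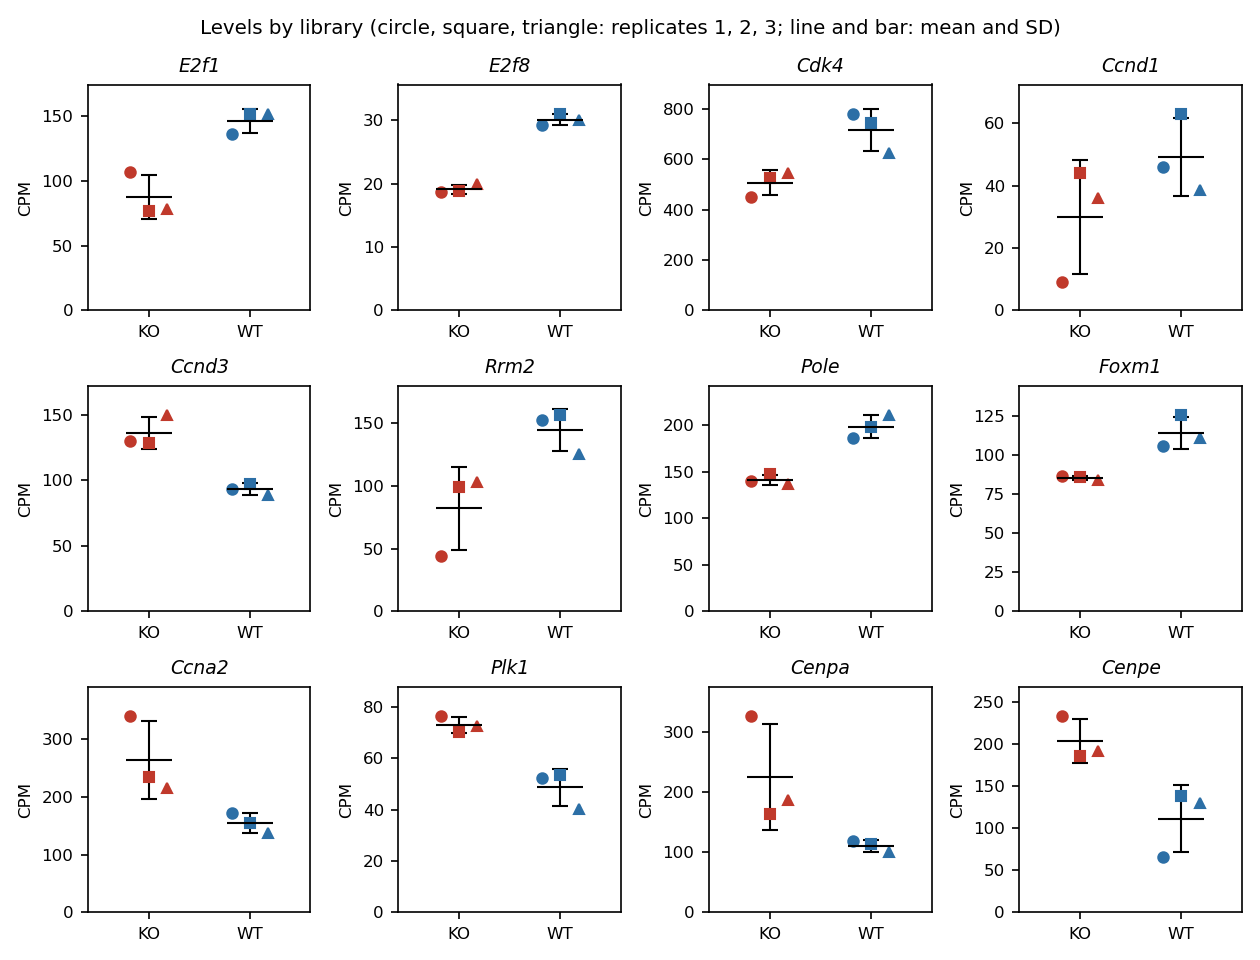
CPM of 12 cycle genes in each library, KO left and WT right, with circles, squares and triangles for replicates 1, 2 and 3, and a line and bar for mean and SD (n = 3). E2f1, E2f8, Cdk4, Rrm2, Pole and Foxm1 lie lower in KO and Ccnd3, Ccna2, Plk1, Cenpa and Cenpe higher, each with no overlap, while the genotypes overlap for Ccnd1.

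Of the 10 G2/M drivers 6 rose, 1 fell and 3 did not pass, or 70% called against 28.3% of all tested genes. Ccna2 (ENSMUSG00000027715, chromosome 3, 36564865 to 36572150), cyclin A, which acts in S phase and G2, had 339, 234 and 215 CPM in KO and 171, 154 and 138 CPM in WT (log2 fold change 0.77, SE 0.22, adjusted p = 0.0213). Ccnb1, cyclin B1, the partner of Cdk1 at mitotic entry, had 208, 188 and 206 CPM in KO and 168, 155 and 134 CPM in WT (log2 fold change 0.40, SE 0.11, adjusted p = 0.0445). In both genes all KO libraries stood above all WT libraries, with KO replicate 1 far out for Ccna2 and level with replicate 3 for Ccnb1. Cdc25b, a phosphatase that switches on Cdk1 and whose promoter is shown above, had 149.8, 79.8 and 87.2 CPM in KO and 63.2, 64 and 49.4 CPM in WT (log2 fold change 0.84, SE 0.31, adjusted p = 0.0395). Cdc25c, a phosphatase of the same family, had 31.4, 22.4 and 21.4 CPM in KO and 16.9, 16.4 and 14.4 CPM in WT (log2 fold change 0.66, SE 0.19, adjusted p = 0.0336). Every KO library of these phosphatases lay above WT, replicate 1 the highest. Cdc25b kept its call without that library, at a log2 fold change of 0.51 (adjusted p = 0.0131). Ccna2 and Cdc25c kept theirs too, at 0.541 and 0.464 (adjusted p = 0.00552 and 0.0128). Exons of Ccna2 overlap Exosc9 and those of Cdc25c overlap Gm3550 on the opposite strand, over 12.5% and 12.7%.

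Plk1 (ENSMUSG00000030867, chromosome 7, 122159439 to 122169873), a kinase of mitotic entry and spindle assembly, had 76.6, 70.3 and 72.6 CPM in KO and 52.5, 53.4 and 40.5 CPM in WT (log2 fold change 0.58, SE 0.13, adjusted p = 0.0166). Its KO libraries lay close together and above all WT libraries. Aurka (ENSMUSG00000027496, chromosome 2, 172356190 to 172370535), the spindle pole kinase that activates Plk1, had 102, 72.7 and 77.5 CPM in KO and 56.7, 57.1 and 48.7 CPM in WT (log2 fold change 0.63, SE 0.17, adjusted p = 0.0201). Leaving out KO replicate 1 put Aurka at 0.472, still called (adjusted p = 0.00606). Aurkb, the related kinase of the chromosomal passenger complex, had 134, 85.2 and 85.4 CPM in KO and 106, 109 and 100.1 CPM in WT (log2 fold change -0.05, SE 0.22, adjusted p = 0.878). KO replicate 1 was the highest of all libraries for Aurkb and KO replicates 2 and 3 the lowest. Without KO replicate 1 Aurkb was lower in KO, with log2 fold change -0.298 (adjusted p = 0.0188). Cdk1, the mitotic kinase, had 431, 324 and 357 CPM in KO and 338, 284 and 262 CPM in WT (log2 fold change 0.33, SE 0.16, adjusted p = 0.15). Ccnb2, cyclin B2 and the most abundant driver per length at 78.7 ± 9.65 in KO and 68.6 ± 10.7 in WT (RPKM, mean ± SD, n = 3), had 138, 111 and 113 CPM in KO and 111, 117 and 86.4 CPM in WT (log2 fold change 0.20, SE 0.17, adjusted p = 0.363). Both overlapped between the genotypes, and without KO replicate 1 Cdk1 was at 0.21 and Ccnb2 at 0.09 on the log2 scale, not called.

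Foxm1 (ENSMUSG00000001517, chromosome 6, 128362967 to 128376146), a transcription factor of G2/M genes, was the one driver that fell. It had 86.4, 85.6 and 83.7 CPM in KO and 106, 125 and 111 CPM in WT (log2 fold change -0.42, SE 0.07, adjusted p = 0.0232). The KO libraries were within a few CPM of each other and below every WT library. Among these drivers Plk1 lost its call with library totals (0.053), Aurka without WT replicate 1 (0.0623), WT replicate 2 (0.0663) or WT replicate 3 (0.0823), and Ccna2 without WT replicate 1 (0.0527), WT replicate 2 (0.0816) or WT replicate 3 (0.0875). Cdc25b lost it without WT replicate 1 (0.101), WT replicate 2 (0.0974) or WT replicate 3 (0.138) and with library totals (0.0622), and Cdc25c without WT replicate 1 (0.0852), WT replicate 2 (0.104) or WT replicate 3 (0.116) and with library totals (0.0738). Foxm1 lost it without KO replicate 2 (0.0654), KO replicate 3 (0.0858), WT replicate 2 (0.115) or WT replicate 3 (0.0577). Ccnb1 lost it without KO replicate 2 (0.0627), KO replicate 3 (0.121), WT replicate 1 (0.0636), WT replicate 2 (0.143) or WT replicate 3 (0.133) and with upper-quartile scaling (0.0648), with library totals (0.213) or when genes with low counts were kept (0.0819). With the replicate block Cdc25c (0.0531), Foxm1 (0.0726) and Ccnb1 (0.0968) lost their calls as well.

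Of 9 kinetochore and checkpoint genes 3 rose, 0 fell and 6 did not pass, or 33.3% called against 28.3% of all tested genes. All 9 had a positive log2 fold change. At an unadjusted p below 0.05 the edgeR counts were 6 higher and 0 lower, where 40.9% of all tested genes passed. DESeq2 called 5 higher and 0 lower, and limma-voom 3 higher and 0 lower, without a share over all genes to set beside them. Cenpa (ENSMUSG00000029177, chromosome 5, 30666777 to 30674830), the histone H3 variant that marks centromeres, had 326, 163 and 187 CPM in KO and 118, 113 and 99.7 CPM in WT (log2 fold change 1.03, SE 0.32, adjusted p = 0.0212). KO replicate 1 was well above KO replicates 2 and 3, which still exceeded every WT library. When KO replicate 1 was left out Cenpa kept its call at a log2 fold change of 0.67 (adjusted p = 0.0019). Ttk, the checkpoint kinase MPS1 whose promoter is shown above, had 98.8, 71.2 and 72.5 CPM in KO and 53.5, 55.2 and 54.5 CPM in WT (log2 fold change 0.57, SE 0.15, adjusted p = 0.025). Its WT libraries differed by under 2 CPM and its KO libraries lay above them. Ttk kept its call without KO replicate 1, at a log2 fold change of 0.402 (adjusted p = 0.00397).

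Cenpe, a kinetochore motor, had 234, 187 and 192 CPM in KO and 66.5, 139 and 130 CPM in WT (log2 fold change 0.87, SE 0.35, adjusted p = 0.0448). Cenpf, a large kinetochore protein of late G2, had 160.5, 160 and 157 CPM in KO and 46.7, 125 and 90 CPM in WT (log2 fold change 0.87, SE 0.42, adjusted p = 0.0717). WT replicate 1 stood apart here, as the lowest of all 6 for both genes, while the KO libraries of Cenpf were nearly equal. Without WT replicate 1 the log2 fold change was 0.596 for Cenpe and 0.561 for Cenpf, against 0.87 for both with all libraries, and Cenpe kept its call (adjusted p = 0.0448). Bub1, a checkpoint kinase, had 153, 111 and 116 CPM in KO and 92.2, 96.5 and 92.2 CPM in WT (log2 fold change 0.44, SE 0.14, adjusted p = 0.0538). Birc5, survivin of the passenger complex, had 169, 153 and 158 CPM in KO and 142, 127 and 112 CPM in WT (log2 fold change 0.33, SE 0.11, adjusted p = 0.0803). Both had KO above WT in every library and missed the threshold. Without KO replicate 1 Bub1 passed at 0.28 (adjusted p = 0.0208). Cdc20, the activator of the anaphase-promoting complex and the most abundant of the class per length at 57.3 ± 13.6 in KO and 47.6 ± 4.61 in WT (RPKM, mean ± SD, n = 3), overlapped (log2 fold change 0.27, adjusted p = 0.293), as did the checkpoint genes Mad2l1 (log2 fold change 0.15, adjusted p = 0.424) and Bub1b (log2 fold change 0.11, adjusted p = 0.562). In the fit without KO replicate 1 Cdc20 was at 0.06, Mad2l1 at 0.04 and Bub1b at -0.02. Cenpa lost its call without WT replicate 1 (0.0675), WT replicate 2 (0.0742) or WT replicate 3 (0.0886), and Ttk without WT replicate 1 (0.0896), WT replicate 2 (0.091) or WT replicate 3 (0.0834) and with library totals (0.067). Cenpe lost it without KO replicate 1 (0.0514), KO replicate 2 (0.0598), KO replicate 3 (0.0731), WT replicate 2 (0.06) or WT replicate 3 (0.085) and with upper-quartile scaling (0.0542) or with library totals (0.0971). Ttk (0.0585) and Cenpe (0.0759) also lost their calls with the replicate block.

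None of the 6 spindle and cytokinesis genes passed the edgeR test, against 28.3% of all tested genes. All 6 had positive log2 fold changes, and 3 reached an unadjusted p below 0.05, against 40.9% of all tested genes. DESeq2 called 1 of them higher, Kif23 (adjusted p = 0.0353), and limma-voom 0, again without a share over all genes. Anln, anillin of the cleavage furrow, had 395, 205 and 208 CPM in KO and 167, 192 and 172 CPM in WT (log2 fold change 0.60, SE 0.32, adjusted p = 0.12). Kif11, the motor that separates spindle poles, had 360.3, 260.3 and 256 CPM in KO and 203, 240 and 206 CPM in WT (log2 fold change 0.43, SE 0.18, adjusted p = 0.0868). Kif23, a motor of the central spindle, had 121, 94.6 and 82.8 CPM in KO and 71.7, 77.4 and 65.8 CPM in WT (log2 fold change 0.47, SE 0.17, adjusted p = 0.059). In these 3 genes every KO library lay above every WT library, and KO replicate 1 was the highest. Without that library the log2 fold change was 0.22 for Anln (adjusted p = 0.0888), 0.26 for Kif11 (adjusted p = 0.0753) and 0.31 for Kif23, which passed (adjusted p = 0.0405). Kif20a, a kinesin of cytokinesis, had log2 fold change 0.18 (adjusted p = 0.403), and 0.30 without KO replicate 1. Its exons overlap Cdc23 on the opposite strand over 29.3%.

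Markers often used to count cycling cells did not pass. Mki67, which encodes the proliferation antigen Ki-67, had 432, 385 and 413 CPM in KO and 241, 462 and 383 CPM in WT (log2 fold change 0.18, SE 0.28, adjusted p = 0.579), and WT replicate 1 was again the lowest library. Top2a, topoisomerase II alpha and the most abundant of its class per length at 99 ± 14.5 in KO and 89.6 ± 2.56 in WT (RPKM, mean ± SD, n = 3), had 1043, 814 and 821 CPM in KO and 819, 823 and 781 CPM in WT (log2 fold change 0.14, SE 0.12, adjusted p = 0.482). Both genes were abundant in each library and overlapped between KO and WT, and Top2a was at 0.02 without KO replicate 1. Summed over the 60 genes, the level was 9388 to 9900 CPM in KO and 8931 to 9638 CPM in WT, so the ranges overlapped.

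Further genes of the same pathways, from lists that hold none of the 60, were called about as often as genes at large. Of 49 other replication genes 2 rose, 12 fell and 35 did not pass, or 28.6% called against 28.3% of all tested genes, with a median log2 fold change of -0.15. Timeless, a fork protection factor, had 96.1, 120.1 and 122 CPM in KO and 212, 212 and 218 CPM in WT (log2 fold change -0.93, SE 0.11, adjusted p = 0.00178). Wdhd1, which couples polymerase alpha to the fork, had log2 fold change -0.61 (adjusted p = 0.00508), and Dnmt1, the maintenance DNA methyltransferase, -0.60 (adjusted p = 0.00609). Dbf4, the regulatory subunit of the Cdc7 kinase that fires origins, rose by 0.54 (adjusted p = 0.0347) and lost its call without WT replicate 1 (0.0943), WT replicate 2 (0.107) or WT replicate 3 (0.119) and with library totals (0.0899). Dbf4 also lost it with the replicate block (0.0546). The lower genes of this list numbered 17, 8 and 7 without KO replicates 1, 2 and 3, and 6, 7 and 8 without WT replicates 1, 2 and 3. The count of all tested genes that fell also varied over these fits, so this is not read as a trait of the list.

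Of 63 other mitotic genes 15 rose, 5 fell and 43 did not pass, or 31.7% called, with a median of 0.09. Ect2, the RhoA activator of cytokinesis, had 182, 138 and 129.8 CPM in KO and 81.5, 91.1 and 76 CPM in WT (log2 fold change 0.85, SE 0.17, adjusted p = 0.00628). Spc24, a subunit of the NDC80 kinetochore complex, had 44.6, 42.6 and 41.4 CPM in KO and 81.1, 80.4 and 64.8 CPM in WT (log2 fold change -0.82, SE 0.11, adjusted p = 0.00307). Gtse1, a microtubule-binding protein of G2, had log2 fold change -0.78 (adjusted p = 0.00469). Ect2, Spc24 and Gtse1 kept their calls in all 14 alternatives. The counts of this list, higher and lower, were 20 and 17 without KO replicate 1, 14 and 4 without KO replicate 2, and 8 and 4 without KO replicate 3. Without WT replicates 1, 2 and 3 the higher genes numbered 2, 2 and 2 and the lower genes 4, 3 and 4, and with library totals the counts were 4 higher and 12 lower. Higher genes thus outnumbered lower ones with all libraries, but not without any 1 of the WT libraries or with library totals. The counts of all tested genes also moved over these fits and with library totals. The changes are therefore not read as a trait of the mitotic genes.

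**Figure D4:**
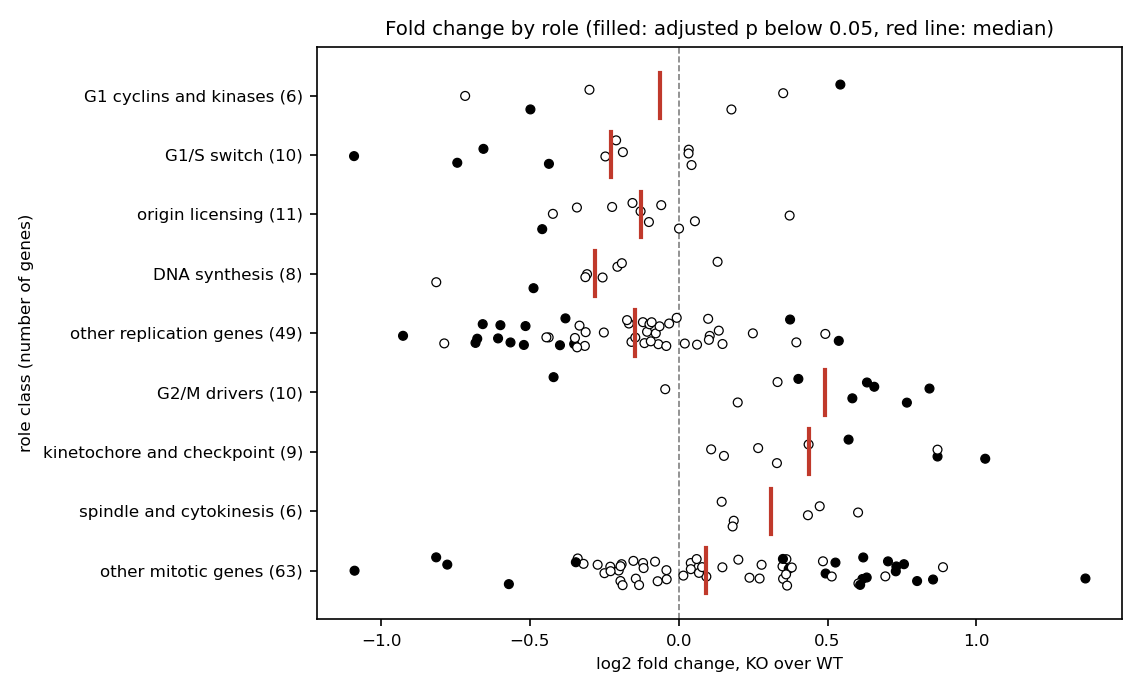
Log2 fold change (KO over WT, horizontal axis) of the 60 cycle genes by role class and of the 49 other replication and 63 other mitotic genes, 1 point a gene, filled where the adjusted p was below 0.05, with a red line at each list's median. The medians of the replication lists lie left of 0 (-0.13 for origin licensing to -0.28 for DNA synthesis) and those of the mitotic lists right of it (0.09 for the other mitotic genes to 0.49 for the G2/M drivers).

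Of 8 pocket proteins and E2F partners 2 rose and 1 fell, or 37.5% called against 28.3% of all tested genes. Rbl1, the pocket protein p107, had 79.1, 101 and 100.2 CPM in KO and 158, 179.5 and 176 CPM in WT (log2 fold change -0.87, SE 0.13, adjusted p = 0.00291), lower in every KO library. E2f5, a repressive partner of pocket proteins, rose by 0.87 (adjusted p = 0.00527), and E2f6, a repressor that works without them, by 0.87 (adjusted p = 0.00962), with its call lost without WT replicate 2 (0.0514). Of 11 MuvB subunits and checkpoint kinases 1 rose and 2 fell, or 27.3% called, a share near that of all tested genes. Wee1, the kinase that inhibits Cdk1, had 47.9, 32.1 and 28.3 CPM in KO and 20.1, 18 and 19.4 CPM in WT (log2 fold change 0.91, SE 0.23, adjusted p = 0.0151). Pkmyt1, which inhibits Cdk1 at membranes, had 28.2, 24.2 and 24 CPM in KO and 32.6, 39.4 and 37.4 CPM in WT (log2 fold change -0.52, SE 0.11, adjusted p = 0.026). Chek1, the replication checkpoint kinase, had log2 fold change -0.46 (adjusted p = 0.0173). Wee1 lost its call without WT replicate 1 (0.0537), WT replicate 2 (0.069) or WT replicate 3 (0.0582), Pkmyt1 without KO replicate 2 (0.0762), KO replicate 3 (0.0923), WT replicate 2 (0.115) or WT replicate 3 (0.0834), and Chek1 without KO replicate 2 (0.0505), KO replicate 3 (0.0748), WT replicate 1 (0.0661) or WT replicate 2 (0.0742). Pkmyt1 (0.0841) and Chek1 (0.0618) also lost theirs with the replicate block.

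Of 7 CDK inhibitors 3 rose and 2 fell, or 71.4% called against 28.3% of all tested genes. Cdkn1c, which encodes p57, had 2 counts in the 3 KO libraries together and 4065 in WT, a ratio of 2120 (WT over KO, 95% exact interval 586 to 17500, counting error only). Cdkn1a, which encodes p21, had 149, 122 and 121 CPM in KO and 311, 317 and 231 CPM in WT (log2 fold change -1.13, SE 0.18, adjusted p = 0.00228). Cdkn2c, which encodes the Cdk4 and Cdk6 inhibitor p18, had 139, 175 and 167 CPM in KO and 107, 88.1 and 97.9 CPM in WT (log2 fold change 0.72, SE 0.13, adjusted p = 0.00655). Neither gene's libraries overlapped between the genotypes, with the p21 gene lower and the p18 gene higher in KO. Cdkn2a and Cdkn2b also rose, by 0.70 and 0.60 (adjusted p = 0.0135 and 0.0209). Cdkn2a lost its call without WT replicate 2 (0.0699) or WT replicate 3 (0.0585). Cdkn2b lost it without KO replicate 2 (0.0568), WT replicate 1 (0.0707) or WT replicate 2 (0.0976). It also lost it with library totals (0.0995) and with the replicate block (0.0672).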

How the data were processed

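RNA was measured in 3 KO and 3 WT libraries. The authors deposited unnormalized counts of reads for each Ensembl gene, in a separate file per library. Per the submitters' processing notes, TopHat2 2.1.0, HTSeq, DESeq2 and the build GRCm38.p4 were used. Annotation release, strand setting and read filters were not given in the sources used here. Symbols, positions and union exon lengths came from GENCODE M21 (GRCm38), which matched 46091 identifiers and left 512 unmatched.

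Counts were filtered with filterByExpr, scaled with TMM and compared by the edgeR 4.0.16 quasi-likelihood F test in R 4.3.3, two-sided, with genotype alone in the design and Benjamini-Hochberg adjustment over all 15009 tested genes at 0.05. All 60 members passed the filter. Standard errors belong to the difference between group means of log2 CPM (prior count 2, n = 3 a group). The tests were checked on simulated data. As alternatives, scaling was by RLE, by upper quartile or by library totals, the test was DESeq2 1.42.0 or limma-voom (limma 3.58.1), and further fits used no filter, a CPM of at least 1 in 3 libraries, a replicate block and each library left out.

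Members and lists were chosen with earlier results of these data known, so no set was tested. The split into S-phase and mitotic genes joins the role classes by phase and was made after values were seen. Genes given with full values are members past the threshold, the most abundant member per length in each class, members with libraries that stand apart, and in each further list 3 called genes, those of smallest p, and 1 called gene of opposite direction. Members singled out beyond the first groups were chosen after their values were seen.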

Additional observations from a re-analysis of the deposited data

How the results depend on the processing

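With all libraries 10 members rose and 8 fell, against 2074 and 2181 of all tested genes. With library totals 3 members rose and 12 fell, and 1351 and 3347 of all genes. The median log2 fold change of the members was 0.0382, and became -0.0119 with upper-quartile scaling and -0.154 with library totals, where the median of all genes was -0.0491 and -0.193. The replicate block gave 6 higher and 3 lower members, and 1446 and 1599 of all genes. With that block 9 of the 18 called members lost their call. Across genes, deviations from the group mean in KO and WT libraries of the same number had correlations of -0.101, 0.046 and -0.148, so the numbers give no pairing. In the fits without 1 library the members that rose ranged from 2 to 14 and those that fell from 2 to 11, all genes that rose from 1003 to 3075 and that fell from 1295 to 3462, and the members' median from 0.00456 to 0.0729. Such fits have fewer samples. Of 18 called members 4 (Ccnd3, E2f1, E2f8 and Plk1) kept the call in each of the 6 fits without 1 library. Of the genes examined, Cenpk and Lin54 changed sign and passed without KO replicate 1, at -0.328 and -0.266, and in the fits without 1 library reached up to 0.219 and 0.253. DESeq2 called all 18 members and 7 more. The cause of these changes was not tested. Exons of 21 of 60 members overlap another gene, where unstranded reads cannot be assigned with certainty, and Ccnb1, Ccnb2, Ccnd3 and Pcna have pseudogene copies with at most 26 counts in a genotype.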
